A study of Mus musculus with 6 samples.

Results

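Long intergenic noncoding RNAs (lincRNAs) of mouse embryonic fibroblasts (MEFs) were compared between cells exposed to erastin and cells exposed to its solvent, DMSO. The members were selected on their annotation, position and summed read count: they were the genes of the deposited count table that GENCODE M21 classes as lincRNA, that lie on an autosome and that had at least 100 reads summed over the 6 libraries. Gm26917 and Gm42418 and the snoRNA host genes (the Gas5 and Snhg symbols) were left out by name. Of 43346 rows of the table, 2777 were lincRNAs and 2134 of these were autosomal. A total of 1084 autosomal lincRNAs had 0 reads in the 6 libraries, 944 had between 1 and 99, 6 were left out by name and 100 were members. The read total used in the choice does not use the treatment, but it was computed on the same libraries. The totals just inside the limit were 101 for Gm7160, 102 for 2610037D02Rik and 103 for Gm17501, and those just outside were 96 for 9530052C20Rik, 93 for Gm6712 and 90 for Ino80dos.

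All 6 libraries came from primary MEFs of the C57BL/6 strain at passage 9, grown in medium with fetal bovine serum and 2-mercaptoethanol. The DMSO group (3 libraries) received solvent, and the erastin group (3 libraries) received 3 µM erastin, both for 24 h. Erastin blocks the cystine/glutamate antiporter and is used to induce ferroptosis, in which iron-dependent oxidation of membrane lipids kills the cell. Total RNA was depleted of ribosomal RNA rather than selected for poly(A) tails, and was sequenced on an Ion Proton instrument. The labels do not say whether replicates were separate embryos or cultures, so p-values measure the spread between these libraries, which may be technical.

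A lincRNA is a transcript without a known protein product that is made from its own locus, outside protein-coding genes. Some stay in the nucleus and organise nuclear bodies, some act on neighbouring genes in cis, some are imprinted, and some serve as precursors of microRNAs. Most are present at a few copies or fewer per cell, so that short-read libraries sample them thinly.

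The libraries held between 13333911 (DMSO replicate 1) and 20509970 (erastin replicate 1) counted reads. Levels are given as CPM (reads per 1000000 counted) on library sizes scaled by edgeR's TMM factors, where 3 reads correspond to 0.140 to 0.234 CPM. Counts of same-group libraries differed by more than sampling noise (chi-square per degree of freedom 11.0 to 19.2), so none was a duplicate. Of 12 fibroblast markers, all with reads, 10 were lower with erastin, and their summed level was 36021 to 39024 CPM in DMSO and 25833 to 27320 CPM in erastin. Summed levels of 4 leukocyte markers were 10.8 to 14.7 CPM in DMSO and 9.23 to 16.9 CPM in erastin. Those of 4 epithelial markers were 2.18 to 3.17 and 2.00 to 3.17 CPM. Of 2 markers of pluripotent cells, Pou5f1 had 0 reads and Nanog had 7 over the 6 libraries. As sums, 3 endothelial markers came to 2.16 to 4.76 CPM with solvent and 7.60 to 9.85 CPM with erastin, 3 skeletal muscle markers to 35.5 to 45.3 and 65.0 to 68.4 CPM, and 3 neural markers to 56.3 to 81.9 and 37.0 to 45.7 CPM. Nearly all of each sum was 1 gene (Kdr, Des and Tubb3), and the other 6 were each under 1 CPM in every library. The part of these shifts in the lincRNA results was not tested, and in bulk RNA fewer cells of a type and less RNA per cell cannot be told apart.

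Erastin was followed by higher levels of the nuclear lincRNAs Malat1 and Neat1 and by lower levels of H19, Mirg and Carmn, while Meg3 did not pass the test. Of the 100 members, 26 passed an adjusted p of 0.05 in edgeR's quasi-likelihood test, 14 of them higher and 12 lower with erastin. Over all 14000 genes tested, 43.1% passed, 21.6% higher and 21.5% lower. At an adjusted p under 0.01, 16 members and 30.8% of all genes passed. The members' share lay below that of all genes, and their read totals were lower, with a median of 211.5 reads against 1947. All 100 members passed the filter on low counts. A further criterion, no overlap between the 3 values of each group, was met by 38 members (38.0%) and by 52.5% of all genes. The median log2 fold change (erastin over DMSO) was 0.05 over the members and 0.00 over all genes. The quartiles of the members were -0.50 and 0.78 against -0.43 and 0.40 over all genes, and the median standard error (SE) was 0.48 against 0.16.

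The share of members passing followed the read total. With 100 to under 200 reads, 5 of 48 members (10.4%) passed, against 13.1% of all genes in that range. With 200 to under 500 reads, the values were 7 of 28 members (25%) and 24.0% of all genes. With 500 to under 2000 reads they were 7 of 15 (46.7%) and 39.3%, and with 2000 or more reads 7 of 9 (77.8%) and 58.9%. Below 500 reads the members' shares lay close to the background. Above it, where 24 members lie, they were higher, a difference that was not tested. The 7 that passed with 2000 or more reads include Gm42743, whose reads cannot be told from those of a histone gene. They also include Tmem250-ps, 1810058I24Rik and Zfp469, which are protein-coding in RefSeq, so the higher share is not a result about lincRNAs alone. A sum over both groups lets a member in through 1 group alone: 28 members had under 50 reads in a group, 22 of them in DMSO, and 6 of the 28 passed, all higher (9530059O14Rik, Gdap10, 2700033N17Rik, Gm7160, Gm37855 and 1300002E11Rik). Among the other 72 members, 20 passed, 8 higher and 12 lower, and their median log2 fold change was -0.12.

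**Figure D1:**
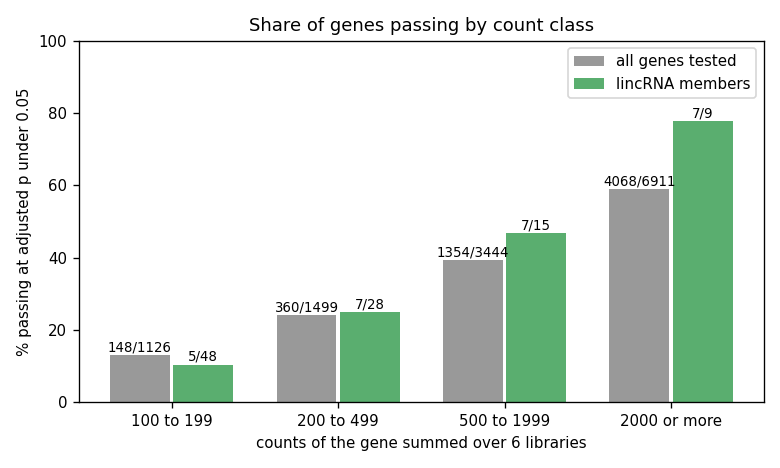
Share of genes passing at an adjusted p under 0.05 (y axis, percent) by the gene's reads summed over 6 libraries (x axis), for all genes tested (grey) and for lincRNA members (green). Numbers above the bars are genes passing over genes tested, and both series climb from the lowest class (13.1% and 10.4%) to the highest (58.9% and 77.8%). Passing members of the highest class include Gm42743, which shares exon bases with a histone gene, and Tmem250-ps, 1810058I24Rik and Zfp469, which are protein-coding in RefSeq.

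**Figure D2:**
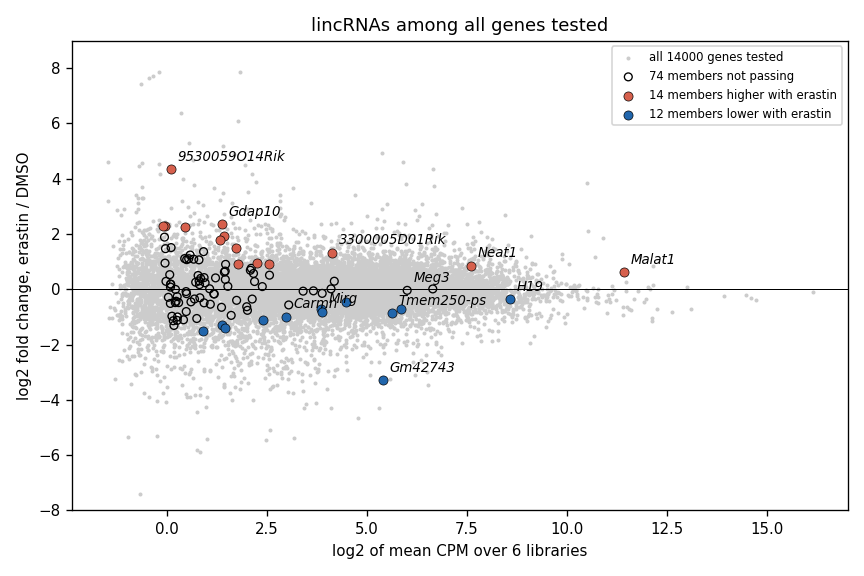
Log2 fold change (erastin over DMSO) against the log2 of the mean CPM over 6 libraries for all 14000 genes tested (grey), the 74 members that did not pass (open circles), the 14 higher (red) and the 12 lower (blue). Most members sit at the left, at low levels, while Malat1, H19 and Neat1 stand at the right.

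The 2 nuclear body lincRNAs both rose. Malat1, a long transcript of nuclear speckles, lies on the minus strand at chr19:5795690-5802672 (GRCm38, as are all positions here). Its levels were 1936, 2062 and 2530 CPM in the DMSO libraries and 3613, 3526 and 2891 CPM in the erastin libraries. The lowest erastin value exceeded the highest DMSO value. The log2 fold change was 0.62 (SE 0.10, edgeR adjusted p = 0.000158). Neat1, the architectural RNA of paraspeckles, is its neighbour on the same strand at chr19:5824708-5845478. It measured 119, 145 and 153 CPM in DMSO and 290, 290 and 177 CPM in erastin, with erastin replicate 3 nearest to the DMSO values. Its log2 fold change was 0.86 (SE 0.15, edgeR adjusted p = 0.000331). Frmd8, the coding gene nearest to Neat1, had a log2 fold change of 0.05 and did not pass.

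Per kilobase of exon, Malat1 was at 312 CPM in DMSO and 479 in erastin, the highest value among the members, and H19 followed at 176 and 137. Neat1 stood at 6.69 and 12.1, Meg3 at 3.61 and 3.51. Malat1 supplied 61.0% to 66.0% of the members' reads in DMSO and 71.8% to 75.0% in erastin. The members together held 0.315%, 0.328% and 0.369% of the counted reads in DMSO and 0.508%, 0.468% and 0.412% in erastin. Without Malat1 those shares were 0.123%, 0.127% and 0.125% in DMSO and 0.129%, 0.117% and 0.116% in erastin, which overlap. The members' summed share was thus apart between the groups with Malat1 and not without it.

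Paraspeckles are assembled from Neat1 and a set of RNA-binding proteins. Of 15 genes for paraspeckle proteins, all tested, 5 rose and none fell, with a median log2 fold change of 0.19. Tardbp (0.90), Taf15 (0.85), Cpsf7 (0.50), Pspc1 (0.50) and Hnrnpk (0.22) were those that rose, while the core Neat1 partners Sfpq (0.08) and Nono (-0.06) did not pass. Nuclear RNA decay limits the level of many noncoding transcripts, and of 15 tested genes of this list 6 rose and none fell, among them the exosome nuclease Dis3 (0.91) and the helicase Mtrex (0.49). Of 15 tested genes for 3′ end processing, 5 rose, led by Pcf11 (1.19), a factor that couples cleavage to transcription termination, and Ints8 fell (-0.32). The shares passing in these lists compare with 43.1% of all genes tested, 21.6% higher and 21.5% lower.

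**Figure D3:**
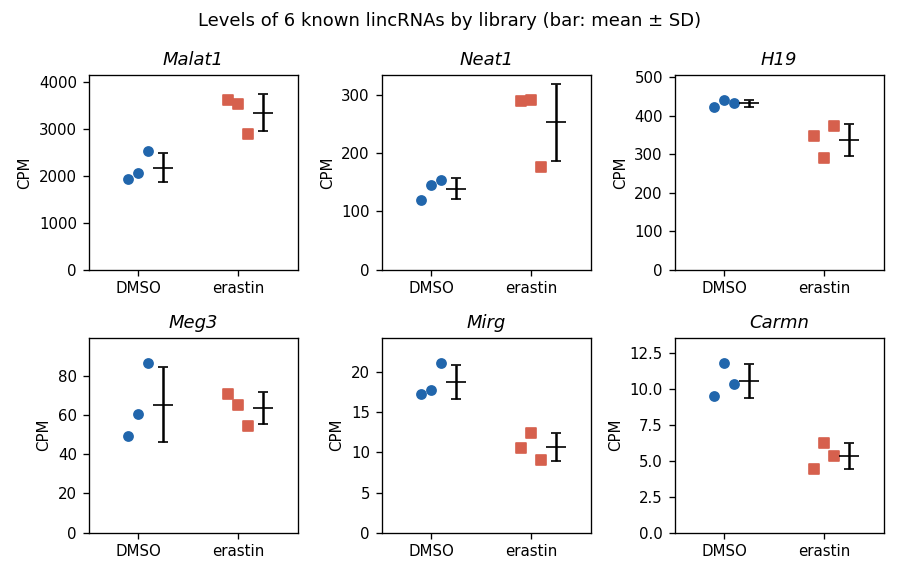
CPM (y axis, linear from 0) of Malat1, Neat1, H19, Meg3, Mirg and Carmn in each library, DMSO as blue circles and erastin as red squares, with mean ± SD (n = 3) as black bars. The groups do not overlap for any of these but Meg3.

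Imprinted lincRNAs are expressed from 1 parental allele. H19, a maternally expressed transcript at chr7:142575529-142578143 that lies in the same imprinted domain as Igf2, had 422, 440 and 434 CPM in DMSO and 348, 291 and 372 CPM in erastin. Every erastin value was below every DMSO value, and the log2 fold change was -0.36 (SE 0.08, edgeR adjusted p = 0.00318). With an offset for GC content and length its log2 fold change was -0.21 and the adjusted p 0.0730. Igf2, which encodes a fetal growth factor, measured 283 ± 8.66 CPM in DMSO and 263 ± 15.4 CPM in erastin (SD, n = 3) and did not pass (log2 fold change -0.11, edgeR adjusted p = 0.245).

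The Dlk1-Dio3 domain on chromosome 12 makes the noncoding transcripts Meg3, Rian and Mirg in 1 direction. Mirg, at chr12:109729764-109749460 on the plus strand, measured 17.3, 17.8 and 21.2 CPM in DMSO and 10.5, 12.5 and 9.02 CPM in erastin, with no overlap. Its log2 fold change was -0.82 (SE 0.17, edgeR adjusted p = 0.00152). Rian, a processed transcript in GENCODE and therefore no member, was 207 ± 1.82 CPM in DMSO and 140 ± 8.53 CPM in erastin (SD, n = 3), a log2 fold change of -0.56 (edgeR adjusted p = 2.52e-05). Meg3 had 49.0, 60.5 and 86.6 CPM in DMSO and 70.8, 65.0 and 54.6 CPM in erastin, so that the erastin values lay within the DMSO range. Its log2 fold change was -0.04 (SE 0.16, edgeR adjusted p = 0.865), and the difference of Meg3's response from that of Rian or Mirg was not tested. Meg3's sign is not fixed, being 0.03 with total-count scaling and 0.21 without DMSO replicate 3. The other 2 members between Meg3 and Mirg, Gm26945 (-0.35) and B830012L14Rik (-0.46), did not pass. At the ends of the domain, Dlk1 (a membrane protein related to Notch ligands) changed by -0.29 (edgeR adjusted p = 0.0242) and Dio3 (a deiodinase that inactivates thyroid hormone) by -2.37 (edgeR adjusted p = 0.0032), the latter from 2.08 ± 0.201 CPM in DMSO and 0.394 ± 0.105 CPM after erastin (SD, n = 3). Of the 7 imprinted noncoding genes tested from the list, 3 fell (H19, Rian, Mirg) and 1 rose (Kcnq1ot1, 0.72). Over all genes, 43.1% passed, 21.6% higher and 21.5% lower.

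Members that carry microRNA genes inside them are shown with the mature sequences of 3 hosts, 2 of which passed the test (H19 and Mirg). Capitals mark the seed (bases 2 to 8), and sequences are from RefSeq on GRCm38.p6. Mirg holds 14 microRNA genes with 26 mature forms and 25 seeds, of which miR-453 and miR-496a-5p share GGUUGCC. H19 holds the miR-675 hairpin. The 3 let-7 hairpins lie in 6720427I07Rik, and their 5p forms share GAGGUAG.
mmu-miR-453: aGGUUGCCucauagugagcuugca
mmu-miR-496a-5p: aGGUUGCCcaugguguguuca
mmu-miR-134-5p: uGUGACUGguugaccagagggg
mmu-miR-410-3p: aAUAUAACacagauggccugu
mmu-miR-675-5p: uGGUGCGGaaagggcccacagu
mmu-miR-675-3p: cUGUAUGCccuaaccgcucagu
mmu-let-7a-5p: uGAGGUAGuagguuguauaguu
mmu-let-7d-5p: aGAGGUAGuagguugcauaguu
mmu-let-7f-5p: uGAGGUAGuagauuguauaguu

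These libraries were not made for small RNA, and the rows of the 14 microRNA genes in Mirg summed to 94 reads over 6 libraries, so the mature forms were not measured. The host of the let-7 hairpins, 6720427I07Rik, had 0.378, 1.27 and 1.48 CPM in DMSO and 1.68, 5.63 and 0.882 CPM in erastin. Those groups overlap, with 1 high library (erastin replicate 2), and the log2 fold change of 1.36 did not pass (SE 0.68, edgeR adjusted p = 0.123). In all, 8 members hold a microRNA gene on their own strand. From the list of microRNA host transcripts, 7 were tested and 4 passed, where 43.1% of all genes did. Mir22hg (0.96) and Lncpint, whose call held in few alternatives, rose, and Carmn and Dnm3os (-1.49), the host of miR-199a and miR-214, fell. Lncpint is on that list, but GENCODE M21 places no microRNA gene inside it on its strand.

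Carmn, also named Mir143hg, is a transcript known from smooth muscle. GENCODE M21 places no microRNA gene inside it on its strand. It lies at chr18:61649625-61665537 and measured 9.52, 11.8 and 10.4 CPM in DMSO and 4.42, 6.23 and 5.34 CPM in erastin. The groups were apart, and the log2 fold change was -0.99 (SE 0.23, edgeR adjusted p = 0.00246).

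Of the 7 tested noncoding RNAs linked to p53, 2 passed, both higher (Neat1 and Lncpint), against 43.1% of all genes passing and 21.6% higher. Lncpint, a p53-induced transcript at chr6:31082565-31220488, measured 2.04, 2.55 and 2.49 CPM in DMSO and 3.96, 5.75 and 3.68 CPM in erastin. The groups did not overlap, with a log2 fold change of 0.91 (SE 0.35, edgeR adjusted p = 0.0467). That call was close to the threshold: it held in 5 of 15 alternative fits, with adjusted p from 0.0335 to 0.202. Without DMSO replicate 1, 2 or 3 the edgeR adjusted p was 0.115, 0.0801 and 0.0598, and without erastin replicate 1 or 2 it was 0.0819 and 0.202. Trp53cor1 (lincRNA-p21), transcribed away from Cdkn1a, had 2.42, 3.66 and 3.50 CPM in DMSO and 4.66, 6.82 and 4.82 CPM in erastin. Its groups did not overlap either, but its log2 fold change of 0.76 (SE 0.32) did not pass (edgeR adjusted p = 0.0661). With total-count scaling it passed (0.82, edgeR adjusted p = 0.0450). Cdkn1a, the p21 cell cycle inhibitor, was 748 ± 34.8 CPM in DMSO and 1401 ± 44.7 CPM in erastin (SD, n = 3), a log2 fold change of 0.91 (edgeR adjusted p = 7.5e-08).

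Pvt1, a transcript downstream of Myc whose levels respond to p53, measured 15.2, 18.7 and 15.1 CPM in DMSO and 20.3, 23.3 and 16.6 CPM in erastin. The groups overlap, since erastin replicate 3 lies under DMSO replicate 2, and the log2 fold change of 0.29 (SE 0.16) did not pass (edgeR adjusted p = 0.174). Myc itself stood at 46.7 ± 3.95 CPM in the DMSO group and 131 ± 15.0 CPM in the erastin group (SD, n = 3), a log2 fold change of 1.49 (edgeR adjusted p = 4.24e-08). 2900097C17Rik (Norad), a cytoplasmic RNA that binds Pumilio proteins, had 11.0, 9.70 and 18.2 CPM in DMSO and 10.8, 12.2 and 14.2 CPM in erastin. DMSO replicate 3 was the highest of the 6, and the log2 fold change was -0.06 (edgeR adjusted p = 0.863), becoming 0.26 without that library and 0.01 with total-count scaling. Epb41l4aos (0.28, edgeR adjusted p = 0.522) did not pass, with values of 0.62 under the GC and length offset and 0.11 without DMSO replicate 3, nor did Tug1 (0.09), the other tested gene of the growth and cytoplasmic list. From the list of inflammation-linked lincRNAs 3 were tested and 1 passed, where 43.1% of all genes did. Ptgs2os (1.22, edgeR adjusted p = 0.216) and Ptgs2os2 did not pass. Lncenc1, no member with 55 reads, passed as lower, at 0.831, 1.44 and 0.856 CPM in DMSO and 0.279, 0.0599 and 0 CPM in erastin. Its erastin mean of 0.113 CPM lies under the level of 3 reads, so no fold is given. From the developmental list, Hotairm1 (-0.50) and Bvht (-0.64) were tested and did not pass. That list also names Lncenc1, as Lincenc1, so the gene given above as lower belongs to both lists.

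The fourth member by level, 1700020I14Rik at chr2:119594297-119607502, had 108, 97.8 and 93.9 CPM in DMSO and 98.5, 85.8 and 118 CPM in erastin. The ranges overlap throughout, and the log2 fold change was 0.01 (SE 0.11, edgeR adjusted p = 0.942). Its sign was negative in 6 of the alternatives, down to -0.23, and it did not pass in any of these.

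**Figure D4:**
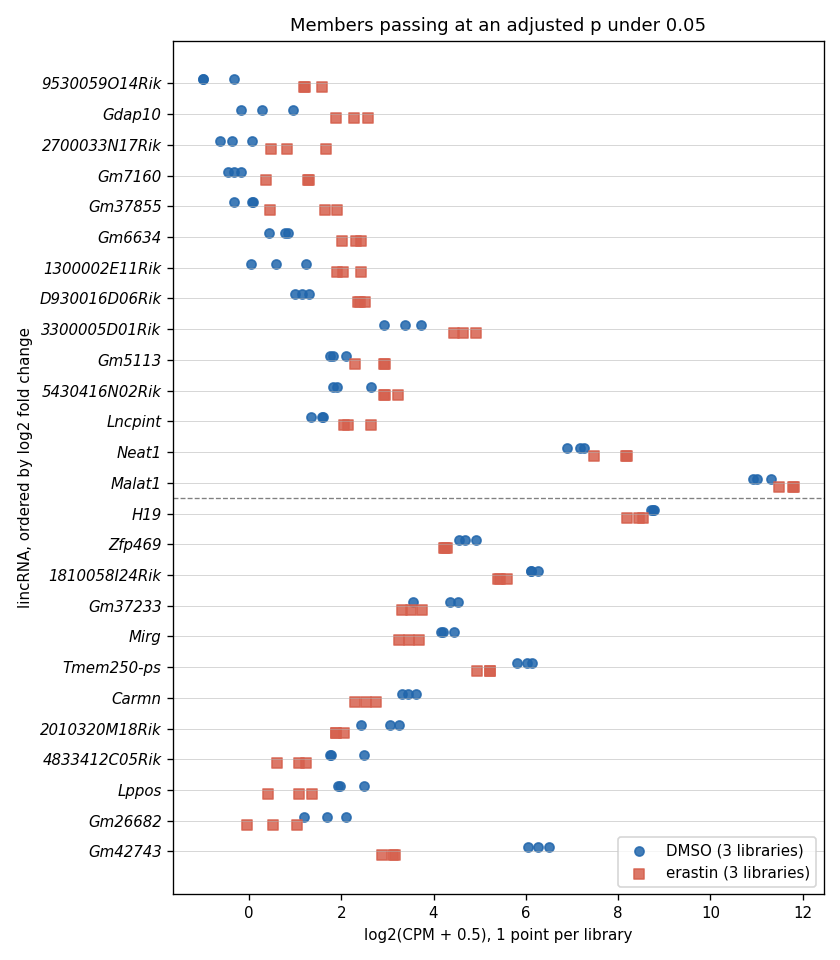
Log2(CPM + 0.5) of the 26 members that passed (y axis, ordered by log2 fold change), 1 point per library, DMSO as blue circles and erastin as red squares. The dashed line separates the 14 higher members from the 12 lower ones, and Gm37233 is the member in which the groups overlap.

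Among the rises with a mean of at least 50 reads per library, D930016D06Rik and 3300005D01Rik had the largest log2 fold changes. 3300005D01Rik, a spliced transcript at chr17:5798657-5803240, measured 9.97, 12.7 and 7.08 CPM in DMSO and 24.5, 29.8 and 21.3 CPM in erastin. Every erastin library lay above every DMSO library, with a log2 fold change of 1.33 (SE 0.20, edgeR adjusted p = 9.06e-05). D930016D06Rik, at chr5:104525735-104554207, had 1.96, 1.50 and 1.71 CPM in DMSO and 4.61, 4.79 and 5.19 CPM in erastin. It was apart in all libraries, with a log2 fold change of 1.50 (SE 0.34, edgeR adjusted p = 0.0026). BC005561, the coding gene that lies 3124 bp upstream of it on the same strand, changed by 1.57.

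Gm5113, at chr7:30169875-30182324, starts 125 bp from Zfp146, a zinc finger gene read in the opposite direction. Gm5113 measured 2.87, 3.82 and 3.04 CPM in DMSO and 7.22, 7.06 and 4.41 CPM in erastin, with a log2 fold change of 0.93 (SE 0.31, edgeR adjusted p = 0.0226). The groups are apart, with erastin replicate 3 nearest to DMSO, and the call was lost without DMSO replicate 1, erastin replicate 1 or erastin replicate 2 (edgeR adjusted p = 0.0676, 0.11 and 0.0809). Zfp146 rose by 0.66. 5430416N02Rik, at chr5:100420842-100429535, measured 3.25, 5.76 and 3.04 CPM in DMSO and 7.26, 7.06 and 8.87 CPM in erastin, with a log2 fold change of 0.93 (SE 0.29, edgeR adjusted p = 0.0183). It was higher in all erastin libraries, but the adjusted p was 0.0681, 0.0521 and 0.0619 without DMSO replicate 1, DMSO replicate 3 or erastin replicate 3. The gene downstream of it, Sec31a of the vesicle coat, changed by -0.25.

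The remaining 7 rises were chosen for naming after their values were seen, since their mean counts per library were under 50. 9530059O14Rik, at chr9:122572499-122679596, had 4, 0 and 0 reads in DMSO and 39, 30 and 48 in erastin. Its DMSO mean lies under the level of 3 reads, and the log2 fold change of 4.35 (SE 0.90, edgeR adjusted p = 0.00116) rests on those 4 reads, being 8.17 without DMSO replicate 1. Gdap10, at chr12:32821872-32826904, had a log2 fold change of 2.35 (SE 0.49, edgeR adjusted p = 0.0012). Its levels were 1.44, 0.721 and 0.389 CPM in DMSO and 5.45, 4.37 and 3.21 CPM in erastin. It overlaps Nampt, the rate-limiting enzyme of NAD salvage, on the same strand, and Nampt rose by 1.29. Reads of the 2 genes cannot be fully told apart in a count table. Gm6634 (1.92, SE 0.40, edgeR adjusted p = 0.00122) went from 1.28, 1.22 and 0.856 to 4.84, 4.49 and 3.53 CPM, apart in all libraries. 1300002E11Rik (1.79, SE 0.48, edgeR adjusted p = 0.00687) had 0.529, 0.998 and 1.87 CPM in DMSO and 3.63, 3.23 and 4.87 CPM in erastin. It shares 227 exon bases with Map3k13, a stress kinase, which rose by 1.03.

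The other 3 low rises had 101 to 149 reads, of which 14 (Gm7160), 14 (2700033N17Rik) and 21 (Gm37855) were from DMSO. Like 9530059O14Rik, Gdap10 and 1300002E11Rik, they had under 50 reads in DMSO and reached 100 reads only through the erastin libraries. The values of these 6 are a description and no support for a rise. Those of Gm6634, with 50 reads in DMSO and 247 in erastin, are read in the same way. Gm7160 (2.29, edgeR adjusted p = 0.011) had 0.302, 0.388 and 0.234 CPM in DMSO and 0.791, 1.98 and 1.92 CPM in erastin. It starts 124 bp from Zcchc2, which is read the other way and rose by 0.88, and its call was lost without erastin replicate 2 (edgeR adjusted p = 0.0541). Gm37855 (2.24, edgeR adjusted p = 0.0093) had 0.302, 0.554 and 0.545 CPM in DMSO and 2.65, 3.23 and 0.882 CPM in erastin, where erastin replicate 3 is nearest to DMSO. It lies within Kirrel, which is on the other strand and changed by -0.61, and its call was lost without erastin replicate 1 or 2 (edgeR adjusted p = 0.0517 and 0.0602). 2700033N17Rik (2.30, edgeR adjusted p = 0.0155) had 0.151, 0.277 and 0.545 CPM in DMSO and 0.885, 1.26 and 2.70 CPM in erastin. It lies 379 bp from Meis2 (-0.10, not passing), and its call was lost without DMSO replicate 1, DMSO replicate 2 or erastin replicate 3 (edgeR adjusted p = 0.0696, 0.0644 and 0.112).

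Promoter windows of 5 members that passed as higher are shown, each with a motif match. The window of Gm7160 holds none, and Lncpint, which has CACGTG, is not shown. Each window runs from 250 bases before to 50 bases after a start site in RefSeq (GRCm38.p6), with motif matches in capitals. The motifs, searched on both strands, were TGATGNAA (a C/EBP-ATF element), TGACNNNGC (the core of the antioxidant response element), TGACGTCA (the cAMP response element), TGANTCA (the AP-1 element) and CACGTG (the E-box), and TGACNNNGC can overlap TGANTCA.
9530059O14Rik promoter, chr9:122572251-122572550, plus strand: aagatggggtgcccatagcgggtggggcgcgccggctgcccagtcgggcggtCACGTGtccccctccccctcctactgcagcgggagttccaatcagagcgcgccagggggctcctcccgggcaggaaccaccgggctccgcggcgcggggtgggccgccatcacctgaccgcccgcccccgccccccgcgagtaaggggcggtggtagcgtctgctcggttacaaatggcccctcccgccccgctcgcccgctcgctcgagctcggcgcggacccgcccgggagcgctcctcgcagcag
3300005D01Rik promoter, chr17:5798407-5798706, plus strand: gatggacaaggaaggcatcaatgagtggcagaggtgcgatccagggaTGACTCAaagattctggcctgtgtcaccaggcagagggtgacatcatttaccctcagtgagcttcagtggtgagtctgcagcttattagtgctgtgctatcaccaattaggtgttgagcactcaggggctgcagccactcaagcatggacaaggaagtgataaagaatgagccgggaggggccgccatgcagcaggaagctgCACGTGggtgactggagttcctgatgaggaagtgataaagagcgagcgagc
Gm5113 promoter, chr7:30169625-30169924, plus strand: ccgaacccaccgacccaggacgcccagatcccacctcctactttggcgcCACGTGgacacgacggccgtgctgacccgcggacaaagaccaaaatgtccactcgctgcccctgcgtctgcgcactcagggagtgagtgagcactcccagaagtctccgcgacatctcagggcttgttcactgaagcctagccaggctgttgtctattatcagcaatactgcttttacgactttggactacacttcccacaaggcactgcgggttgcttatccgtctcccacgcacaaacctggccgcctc
Gm6634 promoter, chr3:70807242-70807541, minus strand: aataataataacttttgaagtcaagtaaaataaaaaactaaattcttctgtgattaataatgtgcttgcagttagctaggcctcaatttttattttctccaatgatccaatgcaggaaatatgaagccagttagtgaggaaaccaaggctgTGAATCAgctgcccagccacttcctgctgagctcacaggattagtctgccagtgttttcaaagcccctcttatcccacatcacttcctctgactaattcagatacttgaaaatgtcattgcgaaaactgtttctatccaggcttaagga
1300002E11Rik promoter, chr16:21794097-21794396, plus strand: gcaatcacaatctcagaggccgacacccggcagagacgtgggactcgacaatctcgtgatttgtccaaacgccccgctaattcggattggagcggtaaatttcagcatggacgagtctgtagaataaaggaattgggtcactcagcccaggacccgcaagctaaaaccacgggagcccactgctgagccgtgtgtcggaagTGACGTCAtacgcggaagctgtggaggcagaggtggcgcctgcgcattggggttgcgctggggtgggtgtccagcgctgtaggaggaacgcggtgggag

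RefSeq promoters were given for 51 of the 100 members (56 windows, against 32851 for all genes). CACGTG occurred in 10 of the 56 (17.9%) and in 7.15% of all windows, and TGACGTCA in 4 (7.14%) and 1.79%. TGANTCA occurred in 6 (10.7%) and 7.81%, TGACNNNGC in 5 (8.93%) and 12.4%, and TGATGNAA in 0 and 3.97%. Of the 10 members with CACGTG, 4 passed (9530059O14Rik, 3300005D01Rik, Gm5113 and Lncpint), all higher with erastin. Of these, 9530059O14Rik reached 100 reads only through the erastin libraries. The call of Gm5113 was lost in 3 of 6 fits with a library left out, and that of Lncpint held in 5 of 15 alternatives. Among all 100 members 26.0% passed, 14 of them higher, and among all genes 43.1% passed, 21.6% higher. Only the 51 members with a window could show a motif, so these shares are not a matched base. The differences between these shares were not tested. These matches are letters in a window and not evidence of binding.

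The largest fall was that of Gm42743 at chr3:96269721-96279001, with 75.9, 90.0 and 65.4 CPM in DMSO and 8.19, 8.50 and 6.84 CPM in erastin. Its log2 fold change was -3.30 (SE 0.14, edgeR adjusted p = 6.56e-10). Gm42743 shares 226 exon bases with the replication-dependent histone gene Hist2h2bb on the same strand, and its identifier in the table has another version than in GENCODE M21. Of the tested histone genes of that cluster, Hist2h2ac (-2.85), Hist2h3b (-2.84) and Hist2h4 (-1.90) fell, and Hist2h2ab (-1.39) and Hist2h2be (-0.36) did not pass. Reads of the lincRNA and of the histone gene cannot be told apart here. Without the 11 members that share exon bases with a coding gene on their strand or are not noncoding RNAs in RefSeq, 21 of 89 passed, 13 higher and 8 lower.

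Of the other falls with ample reads, 3 are classed as protein-coding in RefSeq. Tmem250-ps lies at chr2:26136814-26140521 and had 70.2, 55.4 and 64.7 CPM in DMSO and 37.2, 37.1 and 30.1 CPM in erastin. Its groups were apart, and the log2 fold change was -0.87 (SE 0.12, edgeR adjusted p = 2.91e-05). 1810058I24Rik, at chr6:35252654-35263496, had 76.6, 69.0 and 68.9 CPM in DMSO and 47.6, 41.8 and 42.8 CPM in erastin. It fell by 0.70 (SE 0.09, edgeR adjusted p = 3.12e-05), with narrow spread in both groups. Zfp469, a zinc finger gene in RefSeq that GENCODE M21 lists as a single-exon lincRNA, had 25.1, 29.8 and 22.8 CPM in DMSO and 18.3, 19.2 and 18.6 CPM in erastin. Its log2 fold change was -0.47 (SE 0.14, edgeR adjusted p = 0.0125), and the adjusted p was 0.0868 without DMSO replicate 2 and 0.0686 with the GC and length offset.

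2010320M18Rik, a single-exon transcript at chr8:70776815-70777823, starts 102 bp from Pik3r2, a regulatory subunit of PI3 kinase read in the opposite direction. It measured 8.99, 7.76 and 4.90 CPM in DMSO and 3.68, 3.17 and 3.21 CPM in erastin, with no overlap. The log2 fold change was -1.10 (SE 0.30, edgeR adjusted p = 0.00716), and Pik3r2 changed by -0.25.

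The other 4 falls were named after their values were seen. Lppos, on the strand opposite to Lpp (a focal adhesion protein, -0.85), fell by 1.39 (edgeR adjusted p = 0.019), from 5.14, 3.33 and 3.42 CPM to 0.838, 1.62 and 2.07 CPM. Its adjusted p was 0.0915 and 0.0809 without DMSO replicate 1 or erastin replicate 1. 4833412C05Rik fell by 1.29 (edgeR adjusted p = 0.0281), from 2.95, 2.88 and 5.14 CPM to 1.02, 1.86 and 1.61 CPM, and its adjusted p was 0.125 and 0.109 without DMSO replicate 3 or erastin replicate 1. Gm26682 fell by 1.51 (edgeR adjusted p = 0.0358), from 2.72, 3.82 and 1.79 CPM to 0.466, 1.56 and 0.933 CPM. Its adjusted p was 0.0761, 0.182, 0.139 and 0.0744 without DMSO replicate 1, DMSO replicate 2, erastin replicate 1 or erastin replicate 3. Gm37233, which holds miR-5103, had 11.3, 19.96 and 22.7 CPM in DMSO and 9.45, 10.9 and 13.0 CPM in erastin, where the groups overlap at DMSO replicate 1. It fell by 0.70 (edgeR adjusted p = 0.0225), and the adjusted p was 0.0885, 0.0965, 0.105 and 0.0579 without DMSO replicate 2, DMSO replicate 3, erastin replicate 1 or erastin replicate 2.

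The 74 members that did not pass had log2 fold changes between -1.31 (A330069E16Rik) and 1.89 (1700086O06Rik). Of the 100 members, 14 have a single exon, of which 3 passed, all lower, while 23 of the 86 with 2 or more exons passed, 14 higher and 9 lower. Zfp469, protein-coding in RefSeq, is among the 3. Of all genes tested, 43.1% passed, 21.6% higher and 21.5% lower. The difference between the 2 exon classes was not tested. In other noncoding classes with at least 100 reads, 14 of 85 antisense genes (16.5%) and 20 of 85 processed transcripts (23.5%) passed, and the differences from the lincRNAs were not tested. Of all genes with at least 100 reads, 45.7% passed.

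Many lincRNAs share a promoter region or locus with a coding gene, so each was set beside its nearest one. In 81 pairs both genes were tested, and 51 pairs (63.0%) had the same sign. Across these pairs Pearson's r was 0.16 and Spearman's rho 0.28, as a description only, since the pairs share the 6 libraries. Of the 12 pairs in which both passed, 9 moved in the same direction, 6 higher and 3 lower. Those 12 cover all arrangements: 3 are divergent with starts within 1000 bp and 4 overlap. Of 93 divergent pairs of autosomal coding genes with starts within 1000 bp in which both passed, 67 moved in the same direction. The 2 sets differ in arrangement, so their shares are not directly comparable. Among the 23 divergent pairs with starts within 1000 bp, 13 had the same sign (56.5%), against 57.2% of 563 divergent pairs of autosomal coding genes. Of 12 tested overlapping pairs, 9 had the same sign. How reads in the overlaps were assigned to the 2 genes is not known.

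Some lincRNAs with an induced neighbouring gene did not pass with all 6 libraries. Ptgs2os2, which starts 64917 bp from the prostaglandin synthase gene Ptgs2, had 0.604, 0.554 and 1.63 CPM in DMSO and 1.72, 2.16 and 2.07 CPM in erastin, apart by a narrow margin. Its log2 fold change was 1.11 (SE 0.56, edgeR adjusted p = 0.124), and that of Ptgs2 was 2.67. Without DMSO replicate 3, the highest DMSO library, Ptgs2os2 passed (1.76, edgeR adjusted p = 0.0305). With any other single library left out it did not pass (edgeR adjusted p = 0.207 to 0.339). Picked after the values were seen, D730003I15Rik starts 6415 bp from the stress factor gene Atf3, which is read in the opposite direction and rose by 4.59. D730003I15Rik itself measured 1.36, 0.721 and 2.57 CPM in DMSO and 0.978, 0.239 and 0.830 CPM in erastin, a log2 fold change of -1.14 (SE 0.67, edgeR adjusted p = 0.187). Gm17586 (-0.63, edgeR adjusted p = 0.141), 168 bp from Mafg (0.88), a small MAF factor, did not follow the sign of its neighbour either, as also picked after the values were seen.

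**Figure D5:**
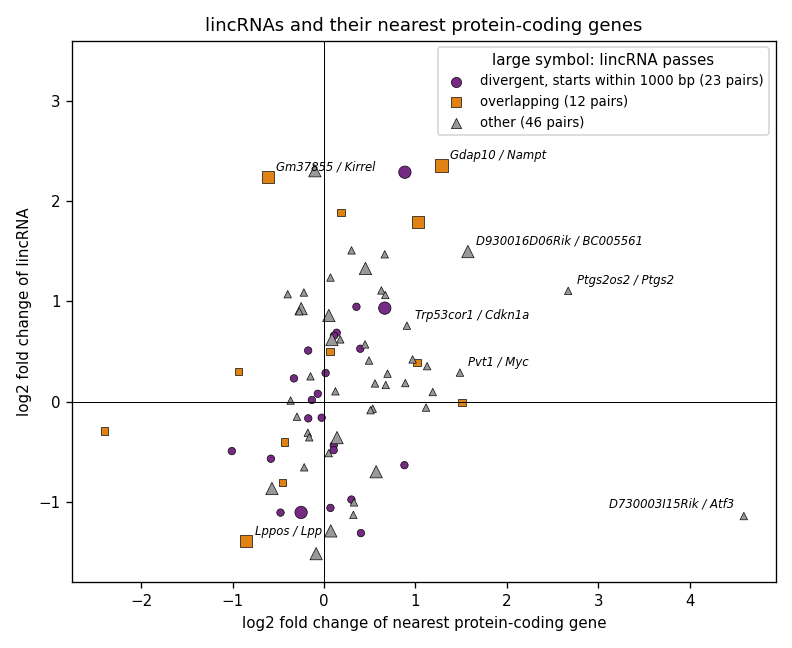
Log2 fold change of each lincRNA (y axis) against that of its nearest protein-coding gene (x axis) for the 81 pairs with both genes tested. Purple circles are divergent pairs with starts within 1000 bp, orange squares overlapping pairs and grey triangles other pairs, with large symbols for lincRNAs that passed. Atf3 lies far to the right of D730003I15Rik, which lies below 0.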

How the data were processed

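Counts were the authors' deposited whole-number read counts per gene for 6 libraries, with no normalization. The submitters' processing notes name mm10, HTSeq 0.9.1 and SAMtools, and the aligner, annotation release and strand setting are not given in the sources used here. Table columns were matched to libraries by their sample labels, with 0 columns unused. Biotypes and positions came from GENCODE M21 (GRCm38), which matched 42462 of 43346 identifiers with versions removed. RefSeq (GRCm38.p6) was matched by symbol for 69 members, of which 62 were lncRNAs, 5 protein-coding and 2 pseudogenes.

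Genes passing edgeR's filterByExpr were fitted with edgeR 4.0.16 (R 4.3.3), TMM factors and the quasi-likelihood test, with treatment as the only term, and p-values were adjusted by Benjamini-Hochberg over all 14000 genes tested. The biological coefficient of variation was 15.1%. SEs were derived from the fold change and the F statistic. The test was checked on simulated data. Alternatives used other scaling factors, filters, a replicate block, an offset for GC content and length (mgcv 1.9.3), DESeq2 1.42.0 and each library left out.

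The members and lists were chosen with earlier results of these data known. The text names passing members with a mean of at least 50 counts whose groups are apart (at most 12 rising and 12 falling, by size), the 10 members of highest level, members of the role lists, and their nearest coding genes. Others are said to be chosen after their values were seen. Results for X and Y chromosome lincRNAs are not reported here.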

Additional observations from a re-analysis of the deposited data

How the results depend on the processing

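The count of 26 passing members (14 higher, 12 lower) stayed within 1.5 times under other scaling factors, filters, DESeq2 and the GC and length offset. The median log2 fold change of 0.048 did not, being -0.0061 with upper-quartile factors, 0.106 with total counts and 0.011 with a filter of 1 CPM. Over all genes tested, the median moved too with the scaling. It was -0.0014 in the main fit, -0.055 with upper-quartile factors, 0.065 with total counts and -0.00097 with that filter. Of the 26, 14 passed in all alternatives run for them. At an adjusted p under 0.01, 16 members passed (9 higher, 7 lower), and 30.8% of all genes. Among the 24 members with at least 500 counts, 14 passed, 5 of them higher, with a median of -0.064. Among the 39 over 5 kb from coding genes, 11 passed (5 higher, 6 lower, median 0.182). The next restrictions were chosen after seeing the data: among the 50 with the identifier version of GENCODE M21, 10 passed (5 higher, 5 lower, median -0.121), and among the 72 with at least 50 counts in both groups, 8 were higher, with a median of -0.117. Leaving out each library in turn gave 19 to 25 passing, 10 to 13 higher, 8 to 12 lower and medians of -0.048 to 0.068.

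Equal replicate numbers did not pair the libraries (correlations of deviations 0.040, 0.0038 and -0.0055). With the replicate block, 25 members passed (13 higher, 12 lower), all among the 26.

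Of the 22 members named by the rule, 3 changed sign, none of which passed. 1700020I14Rik was -0.042 with upper-quartile factors, -0.222 with the offset, -0.230 with the offset and the replicate block, and -0.113 to 0.114 with a library left out. Meg3 was 0.029 with total-count scaling and -0.208 to 0.208 with a library left out, and 2900097C17Rik was 0.0086 and -0.233 to 0.263. The causes were not tested. With under 200 counts the members' median SE was 0.60 on the log2 scale, and with 2000 or more it was 0.12. Of the 100 members, 83 had under 1000 counts.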
